A study of Mus musculus with 4 samples.

Results

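The Ly49 receptors are encoded by genes with Klra symbols. This account covers 6 of them, Klra2, Klra3, Klra4, Klra7, Klra8 and Klra9, which were taken from the gene table by symbol and are 6 of its 27998 genes and of its 11 genes with a Klra symbol. Immune cells were sorted from mouse brain and their RNA was counted cell by cell in droplets (10x Genomics 3′ chemistry), with 1 library per group. The groups were normal (healthy) brain, and brains of C57BL/6J mice given glioma-005 glioblastoma cells in the hippocampus at 8 to 12 weeks of age and treated with isotype control antibody (IgG, clone LTF-2), with anti-CTLA-4 (clone 9H10), or with anti-CTLA-4 and a CD4-depleting antibody (clone GK1.5). Antibody injections began on day 7, harvest followed on day 35, and 3 tumors went into each tumor library. Microglia, myeloid cells, T cells and the remaining CD45-high cells were sorted and mixed at equal ratios, so the sort sets how many cells of each class a library holds. The treatment, age and number of normal mice are not given in the sources used here.

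Ly49 receptors are C-type lectin-like proteins of the cell surface that bind MHC class I molecules or their viral mimics, and in mice they take the place that KIR receptors have in humans. Inhibitory members carry a cytoplasmic motif that recruits phosphatases, whereas activating members signal through the adaptor DAP12, encoded by Tyrobp. Single natural killer (NK) cells are known to express several members in varied combinations. Klra3 (Ly49C), Klra7 (Ly49G) and Klra9 (Ly49I) are inhibitory, and Klra4 (Ly49D) and Klra8 (Ly49H, which binds the m157 protein of mouse cytomegalovirus) are activating. Klra2 (Ly49B) is known from myeloid cells.

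The 6 genes lie on the minus strand of chromosome 6 (GRCm38, GENCODE vM21): Klra4 at chr6:130043731-130067271, Klra8 at chr6:130115226-130129898, Klra9 at chr6:130178675-130193112, Klra7 at chr6:130218605-130233322, Klra3 at chr6:130323289-130337574 and Klra2 at chr6:131219223-131247362. All are protein-coding. Klra2 stands apart, 832 kb from a cluster of 556 kb that holds the other 10 measured Klra genes and 3 pseudogenes. The 250 bases before the annotated transcription start (RefSeq, GRCm38.p6, gene strand) are shown for the myeloid member Klra2, for Klra4 and Klra8, the pair detected together most often relative to their own frequencies, and for Klra7, the member also found in T cells. They cover chr6:131247363-131247612, chr6:130067272-130067521, chr6:130129899-130130148 and chr6:130233323-130233572 in the order given here. Capitals mark the matches to 3 searched motifs, GAGGAA (a core read by Ets factors such as PU.1), TATAA and CTTTGA (a core of TCF-1), on either strand.

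Klra2: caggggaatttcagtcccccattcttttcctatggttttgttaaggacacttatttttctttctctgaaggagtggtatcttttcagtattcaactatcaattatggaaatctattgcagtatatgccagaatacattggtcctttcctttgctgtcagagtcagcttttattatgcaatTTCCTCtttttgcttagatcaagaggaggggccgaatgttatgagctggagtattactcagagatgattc

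Klra4: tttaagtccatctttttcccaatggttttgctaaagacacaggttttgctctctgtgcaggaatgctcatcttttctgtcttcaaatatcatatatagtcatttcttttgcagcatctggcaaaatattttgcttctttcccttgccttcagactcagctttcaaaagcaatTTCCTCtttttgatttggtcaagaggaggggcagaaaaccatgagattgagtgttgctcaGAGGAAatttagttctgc

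Klra8: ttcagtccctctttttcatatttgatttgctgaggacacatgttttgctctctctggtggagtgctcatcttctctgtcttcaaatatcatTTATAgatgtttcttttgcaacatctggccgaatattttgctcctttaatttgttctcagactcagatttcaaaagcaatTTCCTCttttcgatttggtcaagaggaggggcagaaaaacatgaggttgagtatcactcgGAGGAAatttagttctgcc

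Klra7: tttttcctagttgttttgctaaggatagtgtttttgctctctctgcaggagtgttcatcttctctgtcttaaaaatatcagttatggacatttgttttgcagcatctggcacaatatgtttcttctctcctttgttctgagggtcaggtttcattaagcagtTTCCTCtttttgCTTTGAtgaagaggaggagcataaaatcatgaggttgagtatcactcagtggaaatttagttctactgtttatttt

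Free-end alignment of these stretches gave 85.1% identity for Klra4 and Klra8, 81.4% for Klra7 and Klra8, 80.8% for Klra4 and Klra7, and 95.7% for Klra3 and Klra9. Over the 10 pairs of the 5 clustered members the range was 71.3% to 95.7% (median 73.4%), and Klra2 matched the others at 66.5% to 74.7%. The longest run found in all 6 stretches was tTTCCTCtttt (11 bases), which holds GAGGAA on the other strand. It occurred in 42 of 32851 mouse promoter stretches of the same length (0.128%), 9 of them of Klra genes, and ended 8 to 78 bases before the start of the 6 members. GAGGAA matched all 6 members and 23.3% of all promoters. TATAA matched Klra3, Klra8 and Klra9 (22.8% of all promoters), and CTTTGA matched Klra7 only (13.8%). TGTGGT (a Runx core, 14%) and GGTGTGA (a T-box core, 3.33%) were not among the letters of any of the 6 stretches. A match is a match of letters and not a bound site.

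Near-identical copies limit how far single members can be told apart. Of the 90-base windows in the last 500 bases of each transcript, 100% were found in no other gene's transcript for Klra2, Klra4 and Klra8. The share was 91.5% for Klra3 (shared with Klra9 and Klra10), 89.8% for Klra7 (shared with a pseudogene) and 85.9% for Klra9 (shared with Klra3, Klra10 and a pseudogene). How reads from shared stretches were counted is not given in the sources used here, so values of Klra3, Klra7 and Klra9 are uncertain to that extent.

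The libraries held 1420 (normal brain), 1484 (IgG), 1874 (anti-CTLA-4) and 3916 (depletion) barcodes with 7950206 to 21471565 UMIs, a UMI being 1 tagged RNA molecule. After filtering 1388, 1372, 1761 and 3682 cells remained, with 4357 to 5846.5 UMIs per cell in the median, and any pair of libraries shared 0 to 6 barcodes. Cells were grouped by their transcripts with the Klra genes left out of the clustering, and classes were named from fixed markers. They are NK-like, T cell-like, macrophage-like and so on, and the suffix is left out below for the others. The NK-like class had all 10 of its markers at a higher share of cells than the rest, with Ncr1, an NK activating receptor, in 67.4% of its cells and Cd3e in 0.246%. Levels are given as CPM, the UMIs of a gene per 1000000 UMIs of the same cells. Xist stood at 2.19 CPM in the normal-brain library and at 714 to 945 in the tumor libraries, and the Y-linked Ddx3y at 68.0 against at most 2.06, so the sex of the mice differs between normal brain and tumors and cannot be told apart from the tumor in any such comparison. With 1 library per group there is no replicate, no test and no p-value for any difference between groups. Intervals are 95% intervals of counting error only.

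The family split by lineage. Of all UMIs of each gene, NK-like cells held 98.7% for Klra8, 98.0% for Klra4, 93.4% for Klra9, 88.6% for Klra3 and 77.7% for Klra7. T cells held 20.7% of the Klra7 UMIs, the largest T cell share of the 6 members. Klra2 lay outside both: 99.2% of its 3088 UMIs were in myeloid cells, 66.5% of them in macrophages. B cell-like cells, which should lack these receptors, had a UMI of any of the 5 clustered members in 6 of 495 cells (1.21%) at a median of 3841 UMIs per cell, against 727 of 812 NK-like cells (89.5%) at 4213.5. Shares near 1% in other classes are read as background; its source was not tested.

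**Figure D1:**
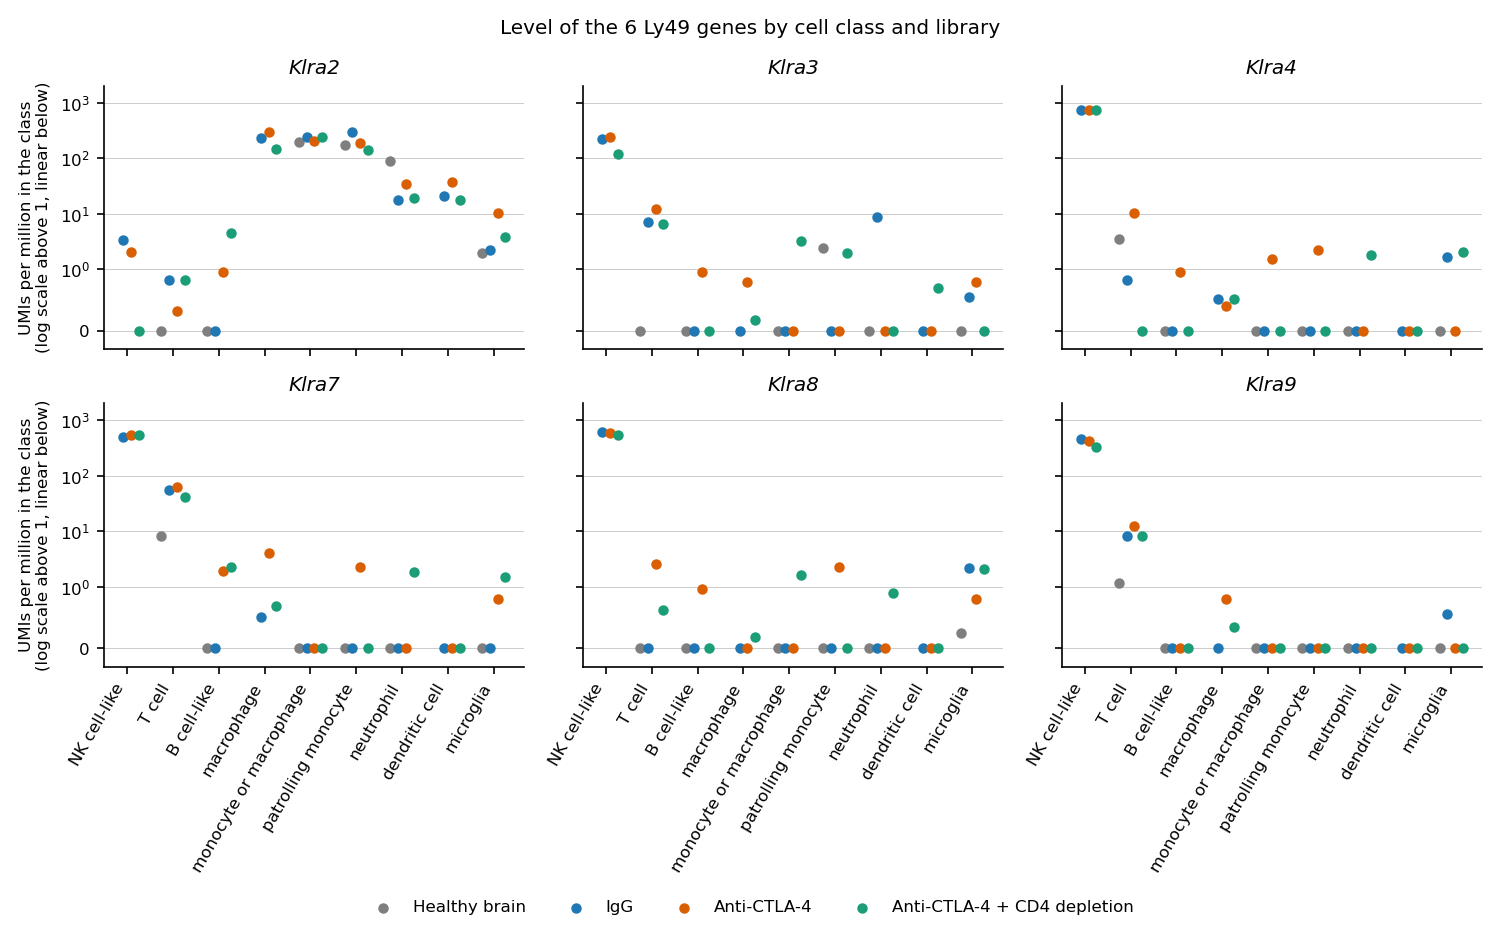
Level of each member (CPM of the class, log scale above 1 and linear below) by cell class, 1 point per library with at least 20 cells in the class. Klra3, Klra4, Klra7, Klra8 and Klra9 are highest in NK-like cells in each tumor library, while Klra2 is highest in macrophages and monocytes and at 0 to 3.35 in NK-like cells.

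In NK-like cells the 2 activating members were found at nearly the same share in each tumor library. Klra4 (Ly49D) had a UMI in 52.8% of the 163 IgG cells (44.8% to 60.6%), in 183 of the 366 anti-CTLA-4 cells (44.8% to 55.2%) and in 48.7% of the 279 depletion cells (42.7% to 54.8%). Its level was 753, 748 and 726 CPM. Klra8 (Ly49H) was in 51.5%, 51.1% and 46.6% of cells, at 617, 583 and 539 CPM. The intervals of both genes overlap between the 3 tumor libraries. Median depth was 4839, 4910.5 and 2993 UMIs per cell, so the depletion library had the least chance to show a gene. With cells thinned to 2000 UMIs and shallower ones left out (7, 9 and 49 cells), Klra4 was in 43.6%, 44.8% and 46.1% of cells, and Klra8 in 41.0%, 42.9% and 38.7%.

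Among the inhibitory members, Klra7 (Ly49G) did not follow Klra3 and Klra9. Klra7 was in 57.1%, 53.6% and 50.5% of NK-like cells (in the order IgG, anti-CTLA-4, depletion), at 499, 551 and 539 CPM. Klra3 (Ly49C) was in 27.6% (20.9% to 35.1%), 28.1% (23.6% to 33.1%) and 15.8% (11.7% to 20.6%), at 219, 238 and 119 CPM. Klra9 (Ly49I) was in 48.5%, 47.3% and 35.5%, at 452, 424 and 333 CPM. IgG and anti-CTLA-4 were alike for both genes and the depletion library was the low one. Thinned to 2000 UMIs, Klra3 was in 23.7%, 21.8% and 13% of cells and Klra9 in 39.7%, 38.4% and 32.6%. Normal brain gave 4 NK-like cells, all with Klra4 and Klra8 and 2 each with Klra3, Klra7 and Klra9, which is too few for a comparison.

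**Figure D2:**
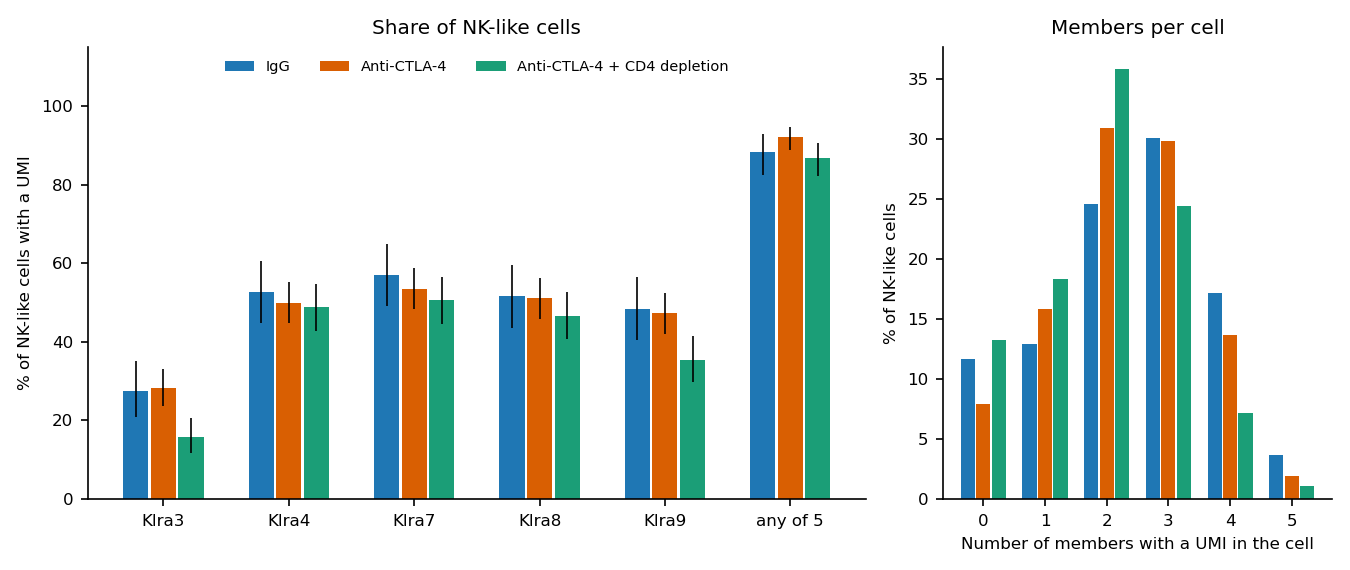
Left, share of NK-like cells with a UMI of each member and of any of the 5, by tumor library, with 95% Clopper-Pearson intervals (cells, counting error only); right, share of NK-like cells by the number of members with a UMI. Klra3 is lower with depletion (15.8%) than with IgG (27.6%) or anti-CTLA-4 (28.1%), and most cells carry 1 to 4 members.

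Between libraries a gene was counted as different in size where it had at least 20 UMIs in both together and a ratio of CPM of at least 2. By that rule Klra3 was lower with depletion than with anti-CTLA-4 in NK-like cells, at a ratio of 0.498 (0.40 to 0.615; 109 against 460 UMIs). It was the single one of 5 members past 2, where 5.79% of all genes passed. Against IgG its ratio was 0.543 (0.425 to 0.689) and that of Klra9 0.737 (0.633 to 0.857), and no member passed (6.43% of genes did). Anti-CTLA-4 against IgG gave 0.939 to 1.10 over the 5 members, and none passed (4.38% of genes did). These comparisons share libraries. The median log2 ratio of the 5 members was -0.01 for anti-CTLA-4 against IgG, -0.20 for depletion against IgG and -0.11 for depletion against anti-CTLA-4, beside -0.02, -0.07 and -0.07 over all genes.

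The Klra3 ratio lies at the limit of 2, and it fell short of it with at least 500 genes per cell, with median-of-ratios size factors or with ribosomal and mitochondrial genes left out. In the larger NK cluster (cluster 3, 623 cells) it was 0.591 (0.452 to 0.764) for depletion against anti-CTLA-4, and in the smaller (cluster 16, 189 cells) 0.525 (0.346 to 0.772), so it was below 1 in both and reached 2 in neither. Klra9 with depletion against IgG was 0.747 in cluster 3 and 1.03 in cluster 16. The summed level of the 10 NK markers was also lower with depletion, 17681 CPM against 23473 with IgG and 24241 with anti-CTLA-4, and Ncr1 was in 53.8% of cells against 77.9% and 72.7%. The part of the cluster shares, of these values and of depth in the Klra3 difference was not tested.

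Klra genes outside the 6 were read in the same cells. Klra1 (Ly49A, inhibitory) was in 9.82% of NK-like cells in the IgG library, 16.9% under anti-CTLA-4 and 14.3% under depletion, at 48.0, 145 and 128 CPM. Its ratio to IgG was 3.02 (2.19 to 4.27) with anti-CTLA-4 and 2.68 (1.87 to 3.89) with depletion. Klra5 (Ly49E) had a ratio of 4.88 (1.63 to 19.6) for depletion against IgG, on 20 against 4 UMIs in 6 and 1 cells. Of all genes, 4.38% passed 2 for anti-CTLA-4 against IgG and 6.43% for depletion against IgG. The intervals treat UMIs as independent, although several came from the same cell, so they are too narrow for these 2 genes. That holds for the CPM and ratio intervals of the 6 members too. The 460 UMIs of Klra3 with anti-CTLA-4, for example, lay in 103 of 366 NK-like cells. Klra6 (Ly49F) was in 2.15% to 3.28% of NK-like cells in the tumor libraries, Klra10 had 7 UMIs in all, and Klra17 (Ly49Q) was in 0 of 812 NK-like cells, which allows a share of up to 0.369%.

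Genes of receptor signalling and other NK genes were read from fixed lists, beside the 4.38% (anti-CTLA-4 against IgG), 6.43% (depletion against IgG) and 5.79% (depletion against anti-CTLA-4) of all genes that passed. Of 11 adaptors and proximal signalling genes, 0 passed a ratio of 2 for anti-CTLA-4 against IgG, and 1 was lower for depletion against IgG, Vav1 (0.465, 0.258 to 0.809), a signalling exchange factor. Ptpn6, the phosphatase SHP-1 that inhibitory receptors recruit, was next at 0.542. The median log2 ratio of the list for depletion against IgG was -0.46, beside -0.07 over all genes. Tyrobp, the adaptor of the activating members, stood at 2463, 2744 and 2422 CPM. Of 12 other NK lectin receptors and of the 3 class I genes H2-K1, H2-D1 and B2m, 0 passed in any of the 3 comparisons. H2-K1, itself a ligand of Ly49 receptors, had ratios of 1.0, 0.923 and 0.920. Anti-CTLA-4 against IgG had 2 of 10 tissue residency genes lower, Tmem176b (0.319) and Tmem176a (0.369), and 3 of 12 cytotoxic and effector genes, Ifng (0.389), Ccl3 (0.429) and Xcl1 (0.484). In the tissue residency list 5 of 10 genes were lower with depletion than with IgG, among them the chemokine receptor Cxcr6 (0.0878, 0.0390 to 0.173) and Tmem176a (0.355, 0.187 to 0.641). In the cytotoxic and effector list 2 of 12 were lower, granzyme Gzmc (0.147, 0.113 to 0.188) and the chemokine Xcl1 (0.35, 0.315 to 0.388).

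The 2 NK clusters, defined without Klra genes, differed in the number of members per cell. Cluster 16, whose leading genes were Prf1, Gzmb and Cma1, had any of the 5 members in 99.5% of cells, and cluster 3 in 86.5%. The mean number of members per cell was 3.00 against 2.15 in the IgG library, 2.84 against 2.12 under anti-CTLA-4 and 2.38 against 1.90 under depletion. At 2000 UMIs per cell it was 2.58 against 1.66, 2.44 against 1.75 and 2.37 against 1.64. The difference was largest for Klra3 and Klra9. Klra3 stood 3.73-fold (2.79 to 4.99), 2.72-fold (2.26 to 3.28) and 2.42-fold (1.53 to 3.73) higher in cluster 16, in the same order of libraries. Klra9 stood 2.70-fold (2.20 to 3.29), 2.06-fold (1.78 to 2.37) and 3.73-fold (2.93 to 4.73) higher. For Klra7 the ratios were 1.58, 1.33 and 0.947, for Klra4 1.91, 1.5 and 1.33, and for Klra8 1.95, 1.44 and 2.27. Cluster 16 was the shallower of the 2 in each tumor library, at 2771.5 to 4529.5 UMIs per cell against 3144 to 5534.

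Within the NK-like class each of the 5 clustered members was at several UMIs in some cells and at 0 in others. Klra4 was at 0 in 49.9% of the 808 tumor NK-like cells, where a Poisson count with the same mean in every cell would be at 0 in 3.18%. Cells with Klra4 had 5 UMIs in the median and up to 27. The observed and Poisson shares at 0 were 50.4% and 6.79% for Klra8, 46.8% and 8.36% for Klra7, 56.6% and 15.1% for Klra9, and 76.2% and 38.8% for Klra3. Each of these 5 members was thus at 0 in more cells than its mean alone gives. Cells also differ in depth, library and cluster, which a Poisson count with 1 mean leaves out. Ncr1, with 1737 UMIs in the 812 NK-like cells of all libraries, was in 67.4% of them. Whether the excess at 0 is particular to Ly49 genes was not tested. The highest count in 1 cell was 56, for Klra7 with anti-CTLA-4.

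**Figure D3:**
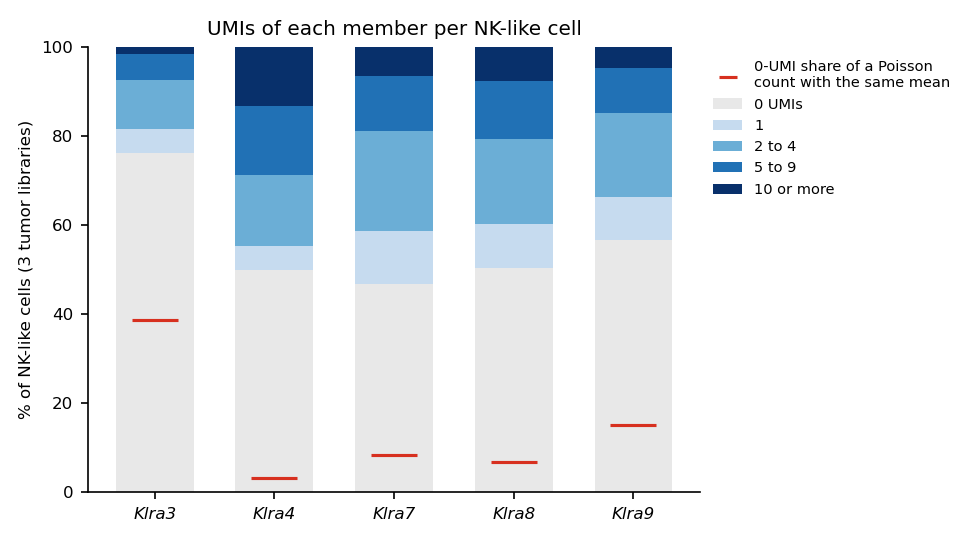
Share of the 808 NK-like cells of the 3 tumor libraries by the number of UMIs of each member (stacked bars), with a line at the share at 0 of a Poisson count of the same mean. The observed 0 segments reach 46.8% to 76.2%, above the Poisson lines at 3.18% to 38.8%.

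Most NK-like cells carried more than 1 member. Over all 812 cells, 85 had a UMI of 0 of the 6 members, 130 of 1, 254 of 2, 227 of 3, 99 of 4 and 17 of 5, so 73.5% had at least 2. The mean was 2.39 in the IgG library, 2.31 under anti-CTLA-4 and 1.97 under depletion, and 1.92, 1.94 and 1.75 at 2000 UMIs per cell. All 32 possible combinations of the 5 members were seen in the tumor libraries, and 31 of them in each of the 3. The most common were none of the 5 (85 cells, 10.5%), Klra4 with Klra7 and Klra8 (72 cells, 8.91%), Klra4 with Klra7 (54 cells, 6.68%) and Klra7 alone (47 cells, 5.82%). No combination made up more than 10.5% of cells.

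Co-detection of pairs was set beside the product of the 2 single shares. Klra4 and Klra8, the 2 activating members, were together in 244 cells where the product gives 201, a ratio of 1.21, and of 1.32 at 2000 UMIs per cell. By library that ratio was 1.31, 1.16 and 1.23 (IgG, anti-CTLA-4, depletion). Klra4 with Klra7 had 1.14 and Klra8 with Klra9 had 1.14. Klra7 with Klra9 was lowest at 0.953, and Klra4 with Klra9 stood at 0.978. The 10 pairs had a median of 1.07, also at 2000 UMIs, and 7 of 10 lay above 1, so most pairs were close to the product. Cells with an activating and an inhibitory member made up 61.0% of tumor NK-like cells, inhibitory only 19.9%, activating only 8.54% and neither 10.5%. Activating only made up 5.52% of IgG cells, 6.56% of anti-CTLA-4 cells and 12.9% of depletion cells, and at 2000 UMIs 11.5%, 12.6% and 16.1%.

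NK-like cells with and without a Ly49 UMI differed in other genes. At 2000 UMIs per cell, 643 tumor cells had a UMI of any of the 5 members and 100 had none. Of these 100 cells, 97 were of cluster 3 and 3 of cluster 16, whose leading genes were Prf1, Gzmb and Cma1. How far the differences follow the clusters was not tested. In the tumor NK-like cells at this depth, 6229 genes had a UMI in at least 20 cells. In all, 16.2% of those genes were found at a higher share of the cells with a Ly49 UMI in each of the 3 tumor libraries, and 11.7% at a lower share. Of 15 NK maturation genes 10 were higher in each library and 0 lower (8 and 0 of 14 at 1000 UMIs per cell, where Klf2 was no longer among them). Irf8, a transcription factor of NK cells, was in 68.9% of cells with and 41% of cells without, Klf2 in 44.6% and 25%, and the mast cell protease gene Cma1 in 22.6% and 5%. Of 12 cytotoxic and effector genes 8 were higher and 2 lower (6 and 2 at 1000 UMIs). Gzma was in 95.5% against 60%, Gzmb in 62.7% against 28% and Prf1 (perforin) in 32.0% against 8%. The 2 lower genes were Xcl1 (30.8% against 58%) and Gzmc (1.56% against 11%).

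Cells without a Ly49 UMI had higher shares of another group. Of 8 tissue residency genes 5 were lower in the cells with Ly49 in each library and 1 was higher. Cxcr6 was in 1.87% of cells with and 26% of cells without, Tmem176b in 0.467% and 23%, the interleukin-7 receptor gene Il7r in 3.58% and 26%, and Cd160 in 4.67% and 24%. At 1000 UMIs per cell 2 of the 8 were lower in each library, and Cxcr6 (in 2 of 3 libraries lower) and Cd160 were no longer among them. Among 12 other NK lectin receptors 7 were higher (3 of 11 at 1000 UMIs) and 2 lower, the latter being Klrc1 (the NKG2A inhibitory receptor, 22.2% against 48%) and Klrb1b (28.5% against 53%). Adaptors gave 2 higher and 2 lower of 11, and Tyrobp was in 96.9% against 91%. A cell without a Ly49 UMI may still express one below detection, and cells of 1 library are not replicates.

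**Figure D4:**
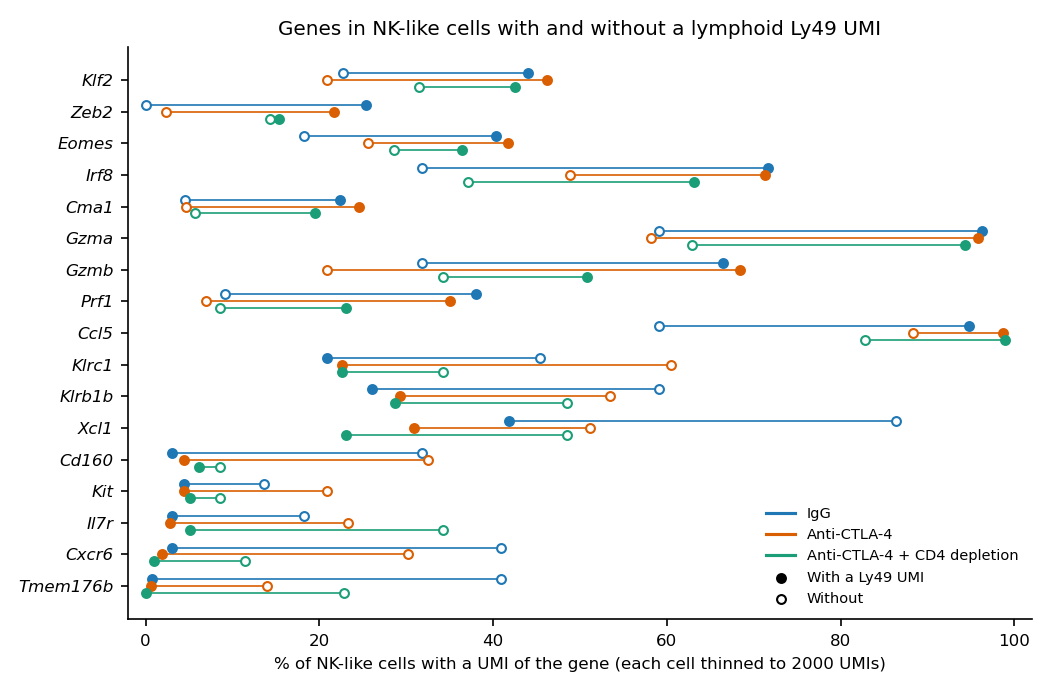
Share of NK-like cells with a UMI of each named gene, in cells with (filled) and without (open) a UMI of any of the 5 members, by tumor library, each cell thinned to 2000 UMIs. Maturation and cytotoxic genes in the upper rows are found in more of the cells with a Ly49 UMI (Prf1 32.0% against 8%), and Cxcr6, Il7r and Tmem176b in the lowest rows in more of the cells without.

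T cells showed a narrower Ly49 pattern. Any of the 5 members was in 5 of 139 T cells from normal brain, 11.4% of 395 in the IgG library, 55 of 502 in the anti-CTLA-4 library and 7.30% of 1082 in the depletion library, at median depths of 6064, 5159, 5483 and 4026 UMIs per cell. Klra7 was the leading member, in 124 of 2118 T cells. Klra7 had a UMI in 0 of 368 T cells with a Cd4 UMI and no Cd8 UMI and in 0 of 358 with a Foxp3 UMI, the mark of regulatory T cells, which allows shares of up to 0.815% and 0.838%. At 2000 UMIs per cell any of the 5 was in 7.14%, 7.62% and 5.10% of the 364, 499 and 981 T cells of the 3 tumor libraries that reach this depth.

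Most of the signal lay in 1 T sub-cluster of 239 cells (T sub-cluster 2), which was singled out after its Ly49 values were seen and was defined without Klra genes. It held 11.8% of tumor T cells, 88.8% of their Klra7 UMIs and 73.2% of their cells with any of the 5. Any of the 5 was in 67.3% of its 55 IgG cells, 58.6% of its 58 anti-CTLA-4 cells and 60 of its 120 depletion cells, against 2.35%, 4.73% and 1.98% of other T cells. Klra7 was in 56.4%, 44.8% and 38.3%, Klra3 in 9.09%, 15.5% and 7.50%, and Klra9 in 10.9%, 13.8% and 10.8%. The activating members were near background, Klra4 in 1 and Klra8 in 2 of 233 tumor cells. Klra1 (43.6%, 29.3% and 32.5%) and Klra6 (23.6%, 34.5% and 26.7%) were in a higher share of cells here than in the NK-like cells of the same library, without a test. Of the 239 cells, 104 had 0 of the 6 members, 111 had 1, 22 had 2 and 2 had 3.

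These cells were T cells by their CD3 genes. A UMI of Cd3d, Cd3e or Cd3g was in 98.7% of them and in 98.5% of those with Ly49. Cd3e was in 79.9% against 0.246% of NK-like cells. Apart from Cd3d and Cd3g, each gene of the T cell list was in a lower share of these cells than of other T cells. Lat was in 48.1% (other T cells 78.4%), Cd5 in 15.1% (41.7%), Bcl11b in 38.9% (57.6%) and Icos in 13.4% (50.8%). Cd8a was in 27.6% (41.9%), Cd8b1 in 13.8% (50.5%) and Cd4 in 0.418% (20.8%). They shared NK genes in part: Klrd1 was in 86.2%, Fcer1g in 69.9%, Xcl1 in 65.3% and Klrb1c in 27.2%, but Gzma in 7.95%, where NK-like cells had 92.0%, and Ncr1 in 9.21%, where they had 67.4%. The transcription factor gene Ikzf2 (Helios) was in 66.9%, against 38.9% of other T cells and 10.2% of NK-like cells.

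Between tumor libraries Klra7 in this sub-cluster stood at 334, 409 and 293 CPM, with ratios of 1.22 (anti-CTLA-4 against IgG), 0.875 (depletion against IgG) and 0.716 (depletion against anti-CTLA-4). No ratio of Klra7 or Klra9 reached 2. Klra3 did for anti-CTLA-4 against IgG, at 2.22 with an interval from 0.975 to 5.51 on 21 against 9 UMIs, which includes 1. In those 3 comparisons 7.22%, 6.62% and 8.21% of genes passed. At 2000 UMIs per cell, cells of the sub-cluster with Ly49 (87) and without (135) differed in few listed genes. Of 8 genes of CD8 T cells with NK receptors 4 were higher in each library, Fcer1g (71.3% against 51.9%), Xcl1 (56.3% against 34.1%), Cd7 (62.1% against 42.2%) and Ikzf2 (56.3% against 48.9%), and 2 were lower, Cd8b1 (2.30% against 15.6%) and Cd8a (9.20% against 14.8%). Over all 2365 genes 10.8% were higher and 11.9% lower in each library. At 1000 UMIs per cell 2 of 7 were higher and 0 lower, and Cd7 and Ikzf2 were not higher in each library.

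Klra2 was a gene of macrophages and monocytes. Macrophages had 146 to 295 CPM (3 tumor libraries), the cluster with monocyte and macrophage markers 193 to 243 and patrolling monocytes 141 to 294 (4 libraries each). Those ranges overlap. Neutrophils stood at 17.3 to 89.5 and dendritic cells at 17.3 to 37.9, also overlapping. Microglia, the resident macrophages of the brain, stood at 1.94 to 10.3 CPM, with a UMI in 0.628% to 2.86% of cells. B cell-like cells had 0 to 4.55. Classical monocyte markers summed to 8790 to 10354 CPM in the macrophage class and to 9237 to 11553 in the monocyte or macrophage cluster. Macrophage markers summed to 11600 to 15615 and to 29662 to 32967 CPM. These class names therefore do not part macrophages from monocytes.

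In macrophages Klra2 was lowest in the depletion library. It was in 73.8% of the 225 IgG cells, 90.8% of the 217 anti-CTLA-4 cells and 55.9% of the 690 depletion cells, at 233, 295 and 146 CPM. The ratio of depletion to anti-CTLA-4 was 0.496 (0.449 to 0.548) and passed the limit of 2, as 12.6% of genes did. Against IgG it was 0.629 (0.560 to 0.706; 11.9% of genes passed), and anti-CTLA-4 against IgG gave 1.27 (1.13 to 1.43; 4.14%). Median depths were 8743, 9982 and 7645 UMIs per cell. At 2000 UMIs the shares were 38.6%, 47.4% and 23.7%, with 15, 4 and 3 shallower cells left out.

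The macrophages of the libraries fell in different clusters. Cluster 2 held 219, 217 and 260 cells of the 3 tumor libraries, and cluster 7 held 437 cells, 430 of them from depletion. In cluster 2 alone, a split chosen after the values were seen, Klra2 stood at 235, 295 and 220 CPM, the ratio of depletion to anti-CTLA-4 was 0.745, that to IgG 0.937 and that of anti-CTLA-4 to IgG 1.26. None passed 2, beside 5.84%, 5.61% and 4.24% of genes. Within the depletion library cluster 7 had 106 CPM, 0.483 (0.421 to 0.554) times the level of cluster 2. Macrophages of the depletion library also had more neutrophil marker RNA, 3961 CPM summed over 10 markers against 817 with IgG and 380 with anti-CTLA-4, whose part in the Klra2 level was not tested.

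**Figure D5:**
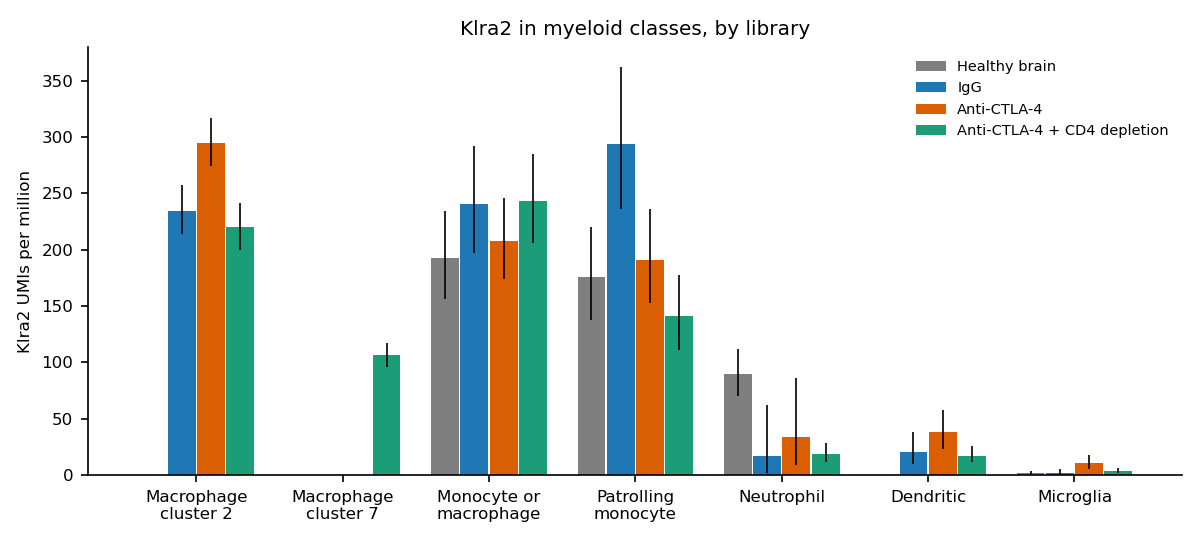
Klra2 CPM by myeloid class and library, for classes with at least 20 cells in the library, with 95% Poisson intervals (counting error only). Macrophage cluster 7, nearly all from the depletion library, has 106 CPM where cluster 2 has 220 in the same library, and microglia are near 0.

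In the monocyte or macrophage cluster Klra2 was in 82.0%, 82.6%, 79.0% and 69.0% of cells from normal brain, IgG, anti-CTLA-4 and depletion (50, 46, 62 and 84 cells), at 193, 241, 208 and 243 CPM. Its ratios were 1.25 for IgG against normal brain, 0.862 for anti-CTLA-4 against IgG, 1.01 for depletion against IgG and 1.17 for depletion against anti-CTLA-4. None passed 2, where 17.4%, 9.36%, 7.44% and 10.3% of genes did. Patrolling monocytes had 176, 294, 191 and 141 CPM in 50.6%, 63.0%, 57.8% and 48.8% of 81, 54, 64 and 82 cells. The ratio of depletion to IgG was 0.480 (0.348 to 0.662) and passed 2 (11.2% of genes). The ratios of IgG to normal brain (1.67, 1.22 to 2.31), of anti-CTLA-4 to IgG (0.649) and of depletion to anti-CTLA-4 (0.740) did not (8.09%, 5.84% and 8.24% of genes). Neutrophil markers summed to 6205 CPM in patrolling monocytes of the depletion library, against 116 to 826 in the other 3, and their part in that ratio was not tested.

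Neutrophils had Klra2 mostly in normal brain. It was in 31.4% of 169 cells (89.5 CPM) there, and in 4.65% of 43, 8.51% of 47 and 3.58% of 503 with IgG, anti-CTLA-4 and depletion (17.3, 33.6 and 18.9 CPM). With all UMIs, where depth differed too, the 95% interval of the share in normal brain did not overlap those of the other 3 libraries. IgG against normal brain gave a ratio of 0.193 (0.0230 to 0.722) on 2 against 76 UMIs, in a comparison where 51.4% of all genes passed 2. The normal-brain neutrophils formed cluster 17 and those of tumors clusters 10 and 15, at 3244 UMIs per cell against 1864 to 2498. At 2000 UMIs the shares were 23.2%, 0% (0 of 31 cells, which allows up to 9.68%), 5.71% and 2.84%, with 27 of 169, 12 of 43, 12 of 47 and 292 of 503 cells left out as shallower. At that depth the intervals of normal brain and anti-CTLA-4 overlapped. Macrophage markers summed to 8950 CPM in neutrophils of normal brain, against 1069 to 1478 in those of the tumor libraries. Of the 10 markers 4 had a UMI in normal brain and 4 to 7 in each tumor library. The list holds Lyz2, which was in 41.2% of cells outside the macrophage class, so the sum is not by itself a measure of macrophage RNA. Classical monocyte markers summed to 4441 CPM against 1859 to 2760. The part of both in the Klra2 level of neutrophils was not tested. Klra17 (Ly49Q), another myeloid member with 64 UMIs in all, had 56.3% of them in neutrophils, and was in 12.4% of those from normal brain and 1.39% of those with depletion.

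Klra2 and the clustered members were rarely in the same cell. Of 750 macrophages with a Klra2 UMI, 10 (1.33%) had a UMI of any of the other 5, against 2.61% of the other macrophages. In NK-like cells 7 of 812 had a Klra2 UMI, each as 1 UMI. All 7 also had a UMI of the other 5, as did 89.4% of the NK-like cells without Klra2.

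The level of each pattern was compared with every other gene over 35 sums of class by library, as log2 of CPM plus 5. The genes most like the sum of the 5 clustered members were Klrc2 (Pearson r = 0.98), Eomes, Klrb1a, Prf1 and Samd3 (0.97 each), among 10767 genes. Those most like Klra2 were Gpr141 (0.95), Lyz2 (0.94), Gm9733 (0.93), Clec4a1 (0.92) and F10 (0.92). The sums of 1 library share its depth, and the correlation mostly reads which classes express a gene.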

How the data were processed

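Per the file headers, the files hold unnormalized UMI counts for each gene in each cell, as deposited after Cell Ranger 3.1.0, and mm10 is the build in the submitters' processing notes. The annotation and the handling of reads that match several genes are not given in the sources used here. The members and gene lists were chosen with earlier results of these data known.

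Barcodes under 200 genes or over 10% mitochondrial UMIs were dropped. Scrublet scored doublets (expected rate 0.05). Its automatic threshold removed 12 of 1400 cells from normal brain. In the other libraries it called under 0.5%, a limit chosen with the data known, and the top 5% of scores were removed (72 of 1444, 92 of 1853 and 193 of 3875). Counts were scaled to 10000, and 2000 variable genes without Klra genes, 30 components and 15 neighbours gave 23 Leiden clusters at resolution 1 and 12 T sub-clusters (scanpy 1.11.5, leidenalg 0.10.2, Python 3.11.15). Clusters were named after they were seen, from marker lists; 2 stayed unnamed. Under other settings a cluster took the class of most of its cells.

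UMIs were summed per class and library and divided by the class total. Shares have exact Clopper-Pearson intervals, sums exact Poisson intervals and ratios exact conditional-binomial intervals (scipy 1.17.1), all at 95%. A ratio against 0 UMIs used a floor of 3 counts. PCR and droplet effects are not covered, nor is the clumping of a gene's UMIs in single cells. All 6 members are named, other Klra genes with at least 20 UMIs, the 2 to 4 list members with the largest ratio in size, and the 5 genes most like each pattern. Genes named for cells with and without Ly49, for the T sub-cluster and for the T cell markers were chosen after their values were seen. Alternatives tried were a minimum of 500 genes, keeping doublets, size factors by median of ratios, ribosomal and mitochondrial genes left out, Klra genes allowed in clustering, resolutions 0.5 and 2, classes from transcripts, 1000 or 2000 UMIs per cell, at least 50 UMIs, and a ratio of 1.5.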

Additional observations from a re-analysis of the deposited data

How the results depend on the processing

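Most values that moved did so when cells were thinned, which removes UMIs from every cell. The share of NK-like cells with any of the 5 members was 88.0% with anti-CTLA-4 at 2000 UMIs per cell, and 77.8%, 77.7% and 77.2% with IgG, anti-CTLA-4 and depletion at 1000. With classes from transcripts it was 90.5% with depletion. T cells had any of the 5 in 7.14% (IgG), 7.62% (anti-CTLA-4) and 5.10% (depletion) at 2000, and in 0% (normal brain), 5.85%, 3.98% and 3.55% at 1000. Klra2 in macrophages fell to 38.6%, 47.4% and 23.7% with IgG, anti-CTLA-4 and depletion at 2000, and to 18.7%, 31.2% and 13.8% at 1000. In the monocyte or macrophage cluster it was 29.8%, 50%, 35.5% and 39.3% over the 4 libraries, from normal brain to depletion, at 2000 and 24%, 23.9%, 25.8% and 27.4% at 1000, and 65.0% with anti-CTLA-4 at no fewer than 500 genes. Patrolling monocytes had 31.3%, 38.5%, 31.2% and 20.5% at 2000 and 8.33%, 20.8%, 7.81% and 9.88% at 1000, and those of normal brain 62.6% with Klra genes allowed in clustering and at resolution 0.5. Neutrophils had 23.2% (normal brain) and 0% (IgG) at 2000, and 13.3%, 0%, 2.13% and 1.58% at 1000. Microglia had 0.138% (normal brain), 0.510% (anti-CTLA-4) and 0.422% (depletion) at 2000, and 0.130%, 0%, 0.493% and 0% at 1000. Members per NK-like cell were 1.92, 1.94 and 1.75 at 2000 and 1.47, 1.39 and 1.33 at 1000. The count of members past the ratio limit for depletion against IgG was 1 at a ratio of 1.5. For depletion against anti-CTLA-4 it was 0 with 500 genes, with median-of-ratios size factors and with ribosomal and mitochondrial genes left out, and the cause was not tested. The median of observed over product for pairs was 1.12 at 1000 UMIs, and 7 listed genes were lower in every library there, against 11 at 2000. All 120 alternative values of single-gene ratios lay within the counting interval of the reported ratio. That of Klra3 for depletion against anti-CTLA-4 ranged from 0.486 to 0.525, on both sides of the limit. Without thinning, 17 of 18 NK shares, 24 of 24 T cell shares and 84 of 87 Klra2 shares moved by less than their interval. No paired analysis was possible because each group is 1 library.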
